A study of Mus musculus with 10 samples.

Results

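Cck cells without GABA enzymes are retinal cells that carry the messenger RNA of cholecystokinin, a peptide transmitter, and no detected RNA of either enzyme that makes GABA. A cell was taken as a member where at least 3 unique molecular identifiers (UMIs, each counting 1 captured RNA molecule) came from Cck and none from Gad1, Gad2 or Slc17a8. Gad1 and Gad2 encode the 2 glutamate decarboxylases that make GABA, and Slc17a8 encodes the vesicular glutamate transporter VGLUT3. This rule found 351 members among 32523 cells. The cells came from 10 single-cell libraries of retina from the Chx10-cre-GFP mouse strain at postnatal day 19, of which 1 formed batch 1, 5 formed batch 2 and 4 formed batch 3. Every library carries the same transgene and no treatment, so batch is the only label that separates them. The sort kept living cells that lacked GFP, CD133 and CD73, and the labels do not name the animals behind each library. The p-values below therefore rest on variation from library to library, and that variation may be technical.

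As background, amacrine cells are interneurons of the inner retina that contact bipolar cells, ganglion cells and each other. Most release GABA or glycine, which the vesicular transporter encoded by Slc32a1 loads into vesicles, and glycinergic amacrine cells take glycine back through the transporter encoded by Slc6a9. A further group with few marks of either transmitter is known, and the transcription factor gene Neurod6 is used to label it. Cholecystokinin, a peptide of dense-core vesicles, is cut from a larger precursor, sulphated and amidated, and acts through the receptors encoded by Cckar and Cckbr. The other 5 genes given as marks of the members encode regulators and an adhesion molecule. Nhlh2 and Neurod6 are basic helix-loop-helix (bHLH) transcription factors, Ebf1 is an early B-cell factor, Nfix is a nuclear factor I protein, and Cntn6 is a contactin of the cell surface.

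The Cck gene lies on the minus strand of chromosome 9, from 121489824 to 121495694, and Neurod6 lies on the minus strand of chromosome 6, from 55677822 to 55681263 (GENCODE M21, GRCm38, the assembly that mm10 names). The 250 bases before the start of each are shown because bHLH factors, which bind the E-box (CANNTG, the same on both strands), are the largest family among the marks. Capitals mark E-boxes in RefSeq sequence of build GRCm38.p6, 5′ to 3′ on the gene's strand.
Cck chr9:121495695-121495944: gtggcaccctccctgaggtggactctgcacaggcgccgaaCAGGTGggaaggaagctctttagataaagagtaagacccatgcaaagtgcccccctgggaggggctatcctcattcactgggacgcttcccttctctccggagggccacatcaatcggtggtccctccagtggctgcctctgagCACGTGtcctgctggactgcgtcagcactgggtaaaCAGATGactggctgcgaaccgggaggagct
Neurod6 chr6:55681264-55681513: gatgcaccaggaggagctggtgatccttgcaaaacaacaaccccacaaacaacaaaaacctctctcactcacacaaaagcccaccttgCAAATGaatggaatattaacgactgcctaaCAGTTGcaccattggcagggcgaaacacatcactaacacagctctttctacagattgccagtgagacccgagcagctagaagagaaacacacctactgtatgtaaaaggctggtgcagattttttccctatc
The Cck window held 3 E-boxes and the Neurod6 window 2, and 66.2% of 32841 mouse windows of this length held at least 1. One E-box of the Cck window had the letters CAGATG, which 14.4% of the windows held. The cyclic AMP response element TGACGTCA was in neither window and in 1.55% of all windows, and 1 copy of its core TGACG, searched on both strands, was in the Cck window (17.8% of all windows held 1 or more). Such matches describe the letters only.

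Libraries held 950 to 4738 cells and 6302659 to 26028492 UMIs, with a median of 3296.5 to 5717 UMIs per cell. The members were shallower than the cells they were compared with. Their median was 2499 UMIs per cell, against 3670 in the Slc6a9-gated cells and 8051 in the Cck cells with GABA enzymes that are defined below. Between libraries, 923 cell barcodes (2.92%) occurred more than once, and 18 members had such a barcode. No doublet caller was run. Without the cells above 2 times the median UMIs of their library, 347 members were left.

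Members made up 1.28% ± 0.721 (SD, n = 10) of the cells of a library, from 0.18% in library 5 to 2.42% in library 1, with a median of 1.22%. Library 1 was the single library of batch 1, so its batch cannot be told apart from that library. The 5 libraries of batch 2 had shares of 0.18% to 1.09%, and the 4 of batch 3 had 1.36% to 2.06%. These batches did not overlap, and their means of 0.682% and 1.73% differed (two-sided exact permutation test over libraries, p = 0.0159). The share of Slc6a9-gated cells went the same way, 9.07% ± 1.13 in batch 2 and 21.0% ± 0.935 in batch 3 (exact permutation p = 0.0159), as did the median UMIs per cell, 3792.5 ± 397 and 4795 ± 544 (exact permutation p = 0.0159). Set against the Slc6a9-gated cells of the same library, members numbered 7.33 ± 3.52 per 100 in batch 2 (2.29 to 11.5) and 8.22 ± 1.18 in batch 3 (6.92 to 9.67). These ranges overlapped (exact permutation p = 0.667), and library 1 stood above them at 18.0 per 100. The share of Cck GABAergic cells was 2.83% ± 0.497 and 3.63% ± 0.691 (exact permutation p = 0.0952). Over these 5 tests of batch, Benjamini-Hochberg adjustment moved p = 0.0159 to 0.0265, 0.0952 to 0.119, and left 0.667. The part of depth in these shares was not tested beyond thinning: with every cell thinned to 2000 UMIs, 240 members among 26244 cells gave 0.565% in batch 2 and 1.4% in batch 3 (exact permutation p = 0.0159).

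**Figure D1:**
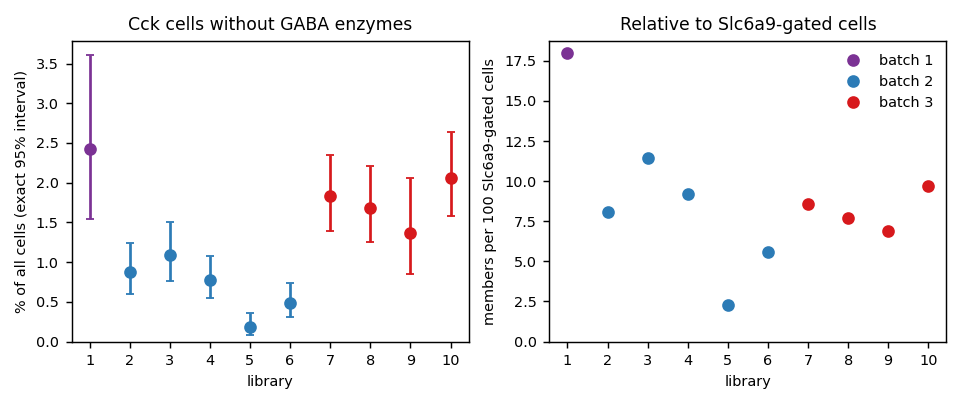
Share of Cck cells without GABA enzymes in each library with its exact 95% binomial interval (left, % of all cells), and members per 100 Slc6a9-gated cells (right), with libraries coloured by batch. The batch 3 shares lie between 1.36% and 2.06%, above every batch 2 share, while the ratios on the right overlap between batches 2 and 3.

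Most members held at least 3 of the 5 given marks beside Cck. These values describe how the members look and carry no test, because the marks were chosen with these cells known. Of the 351 members, 312 (88.9%) had a UMI of at least 3 of the other 5 marks, and 60 (17.1%) had all 5. At least 3 were in 21.5% of the Slc6a9-gated cells, 19.1% of the Cck GABAergic cells and 9.16% of all cells, not matched for depth. Cck itself was at 3 UMIs in 79 members, 4 in 77, 5 to 9 in 154 and 10 or more in 41, with a maximum of 18. Nhlh2 was detected in 90.6% of members, Nfix in 89.2%, Ebf1 in 87.7%, Cntn6 in 65.0% and Neurod6 in 31.1%. Neurod6 was thus the only one of these marks missing from most members, and 89 of its 109 positive members held a single Neurod6 UMI. At this depth, a member without a UMI is not shown to lack the RNA.

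Levels are given in CPM, which is how many UMIs a gene had for each 1000000 UMIs captured from all cells of one gate in one library. Each is compared with 2 other gates. The first, Slc6a9-gated cells, had at least 2 Slc6a9 UMIs and none of Gad1, Gad2 or Cck (4284 cells). The second, Cck GABAergic cells, had at least 3 Cck UMIs, at least 2 of Gad1 plus Gad2 and none of Slc17a8 (1014 cells). Over the 10 libraries, Cck ran from 1562 to 2534 CPM (median 2046) in the members and from 711 to 1027 CPM (median 934) in the Cck GABAergic cells. Levels in the members were above those in the Cck GABAergic cells in every library, on a gene that chose both. The same 3 UMIs make a higher CPM in a shallower cell, so part of this gap was set by the rule. Per cell the order was the other way, with a mean of 5.79 Cck UMIs in the members and 7.81 in the Cck GABAergic cells. Nfix, on chromosome 8 from 84699876 to 84800344, ran from 624 to 1606 CPM (median 1104) in the members. It ran from 84.8 to 357 CPM (median 122) in the Slc6a9-gated cells and from 36.5 to 137 CPM (median 96.6) in the Cck GABAergic cells, with no overlap. Within the Slc6a9-gated cells the 4 libraries of batch 3 had 329.6 to 357 CPM of Nfix and the other 6 had 84.8 to 127 CPM. Nhlh2, on chromosome 3 from 102010076 to 102015492, ran from 966 to 1869.7 CPM (median 1388) in the members, against 381 ± 109 CPM (SD, n = 10) in the Slc6a9-gated and 311 ± 92.0 in the Cck GABAergic cells. Both comparison gates therefore also held Nhlh2, at lower levels. Ebf1, on chromosome 11 from 44617317 to 45008091, ran from 908 to 1497 CPM (median 1168) in the members, against 542 ± 62.4 CPM in the Slc6a9-gated and 83.6 ± 41.5 in the Cck GABAergic cells.

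Cntn6, on chromosome 6 from 104492790 to 104863406, ran from 293 to 603 CPM (median 424) in the members, against 26.4 ± 6.4 CPM (SD, n = 10) in the Slc6a9-gated and 27.9 ± 11.4 in the Cck GABAergic cells. Neurod6 ran from 81.9 to 187 CPM (median 139.8) in the members, against 4.88 ± 2.54 CPM and 7 ± 4.95 in the same gates. Cntn6 and Neurod6 had the lowest levels outside the members relative to those inside. In the members of library 5, which numbered 8, Nfix was the lowest of all libraries at 624 CPM and Ebf1 the highest at 1497 CPM, on 10 and 24 UMIs.

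**Figure D2:**
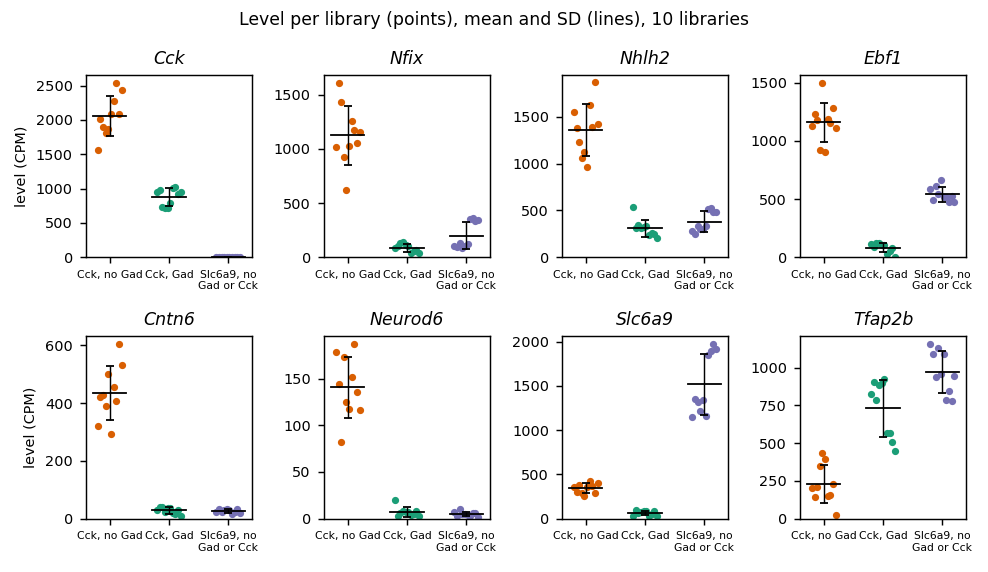
Level in CPM of Cck, the other 5 given marks, Slc6a9 and Tfap2b in members (orange), Cck GABAergic cells (green) and Slc6a9-gated cells (purple), with 1 point per library and bars for the mean and SD over 10 libraries. Member levels of Nfix, Nhlh2, Ebf1, Cntn6 and Neurod6 lie above both other gates in every library, Slc6a9 lies between them, and Tfap2b is lowest in the members.

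Cells just outside the rule also carried the given marks. With at least 3 Cck UMIs and exactly 1 Gad UMI there were 79 cells, just outside the rule, and 75.9% of them had Nfix, 83.5% Nhlh2, 72.2% Ebf1, 53.2% Cntn6 and 31.6% Neurod6. A further 105 cells with exactly 2 Cck UMIs and no Gad UMI had Nfix in 79.0%, Nhlh2 in 81.0% and Neurod6 in 29.5%. The 79 members just inside, at 3 Cck UMIs, had Nfix in 79.7%, Nhlh2 in 83.5% and Neurod6 in 26.6%. The condition on Slc17a8 removed 6 cells. Among Cck cells sorted by their Gad UMIs, and with each cell thinned to 2000 UMIs, Nfix was in 88.8% of cells at 0 Gad UMIs, 71.0% at 1, 56.5% at 2, 18.3% at 3 or 4, 12.1% at 5 to 9 and 9.04% at 10 or more. The thinned share with Tfap2b was 15.5% at 0, 30.4% at 1, 47.8% at 2, 36.6% at 3 or 4, 38.3% at 5 to 9 and 53.4% at 10 or more. The cells with 2 Gad UMIs were 26, and median depth rose from 2499 UMIs at 0 to 9459 at 10 or more.

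**Figure D3:**
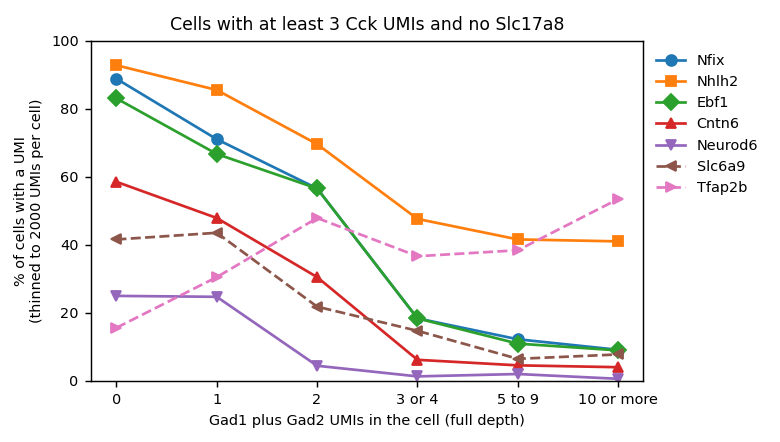
Percent of Cck cells (at least 3 Cck UMIs, no Slc17a8) with a UMI of each gene after thinning every cell to 2000 UMIs, against the Gad1 plus Gad2 UMIs of the cell at full depth. Nfix falls from 88.8% at 0 Gad UMIs to 9.04% at 10 or more, and Tfap2b is in 15.5% at 0 and 53.4% at 10 or more.

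Free RNA can place a Cck UMI in a cell that does not express the gene. A pair of other gates, chosen after their values were seen, gives the background. A gate for AII cells, glycinergic amacrine cells joined by connexin 36, asked for 2 or more Gjd2, 1 or more Prox1 and 2 or more Slc6a9 UMIs and no Gad. It had a Cck UMI in 5.9% of 915 cells and 3 or more in 0.874%, at a median depth of 4800 UMIs. A gate on Cartpt (50 or more UMIs, with 2 or more of Gad) had a Cck UMI in 6.13% of 1125 cells and 3 or more in 2.22%, at a median depth of 6127 UMIs. The members were 1.08% of all cells, which is not a like measure, since their rule also asked for no Gad or Slc17a8 UMI. Their median depth was also lower, at 2499 UMIs. Cck GABAergic cells, also with 3 or more Cck UMIs, made up a further 3.12% of all cells. Neurod6, the sparsest mark, was in 24.9% of thinned members, 0.113% of thinned AII-gated cells and 0.383% of thinned Cartpt-gated cells.

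The members carried the vesicular transporter of inhibitory neurons and an intermediate level of the glycine transporter. Slc32a1, the vesicular transporter for GABA and glycine, was in 74.4% of members. It ran from 410.0 to 709 CPM over libraries (median 600.3) in the members and 509 to 713 CPM (median 593) in the Slc6a9-gated cells, over the 9 libraries with at least 10 members. The groups overlapped and the gene did not pass the test (log2 change -0.07 ± 0.07 (SE), edgeR adjusted p = 0.56), nor did it against the Cck GABAergic cells (log2 change 0.08 ± 0.08 (SE), edgeR adjusted p = 0.451). Slc6a9, the glycine transporter, had no UMI in 189 members, 1 in 94 and 2 or more in 68. It ran from 286 to 423 CPM over libraries (median 358) in the members and 24.7 to 92.2 CPM (median 58.4) in the Cck GABAergic cells, with no overlap (log2 change 2.68 ± 0.20 (SE), edgeR adjusted p = 6.14e-12). Against the Slc6a9-gated cells, which Slc6a9 chose, the members were low, 342 ± 56.9 against 1516 ± 343 CPM (SD, n = 10). After thinning, 41.5% of members had a Slc6a9 UMI, against 8.17% of Cck GABAergic cells, 9% of Cartpt-gated cells and 5.29% of starburst-gated cells, the cholinergic amacrine type.

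The members held few counts of other transmitter genes. Slc6a5, the neuronal glycine transporter, had 3 UMIs against 458 in the Slc6a9-gated cells (9.91-fold lower, 3.37 to 48.2, exact 95% interval for counting error only). Slc17a6, the vesicular glutamate transporter VGLUT2, had 5 UMIs in all members. Cckar and Cckbr had none, which allows up to 3.13 CPM of each, a bound on counting error alone. So the receptors for cholecystokinin were not detectable in the members at this depth. Gad1 and Gad2, at 0 by the rule, were at 1098 ± 132 and 215 ± 49.2 CPM in the Cck GABAergic cells.

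Against the Slc6a9-gated cells of the same 9 libraries, the members differed in 1427 of 5771 genes tested (24.7%), 705 higher (12.2%) and 722 lower (12.5%). At least 2-fold, 188 were higher (3.26%) and 230 lower (3.99%). Levels of the gates did not overlap over libraries in 342 genes (5.93%). Every list described below was called at a higher share than the 24.7% of all genes tested, at 44.4% or more. A list count is therefore not read as a result about its family. The test was edgeR's quasi-likelihood test on counts summed per library and gate, with library as a block, Benjamini-Hochberg adjustment and a threshold of 0.05. The genes of the rule were left out, and a gene that is scarce in 1 of the gates could enter only through the other. Within batches the counts were 367 higher and 415 lower in batch 2, and 578 higher and 672 lower in batch 3, and the change differed between these batches in 54 of 7347 genes tested (0.735%, edgeR interaction test). The members were shallower, and with gates set on cells thinned to 2000 UMIs 507 genes were higher and 508 lower of 5136 tested. With the 68 members that had 2 or more Slc6a9 UMIs alone, 60 genes were higher and 219 lower over 3 libraries, of 8827 tested. Of the 1425 genes called with all members and tested there, 242 passed in the same direction and 240 had a change of the opposite sign, whether or not it passed.

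Of 29 receptors for peptides on the list, 2 had enough counts to be tested, and both were higher in the members. A receptor scarce in the Slc6a9-gated cells, as Galr2 was, could be tested only through its counts in the members. This count therefore says nothing of the list. Galr2, a galanin receptor on chromosome 11 from 116280939 to 116283938, ran from 29.3 to 97.5 CPM over libraries (median 52.8) in the members and 1.34 to 3.3 CPM (median 2.23) in the Slc6a9-gated cells. The groups did not overlap (log2 change 4.83 ± 0.33 (SE), edgeR adjusted p = 2.92e-17). Crhr1, a receptor for corticotropin-releasing hormone, rose by 1.34 ± 0.25 on the log2 scale. Of the 30 peptide precursors, few had enough counts to be tested: 1 of 7 tested genes was higher and 4 were lower. The higher gene, Scg2, was higher in 5 of 9 libraries. A precursor scarce in the members, as Nxph1 and Sct were, could be tested only through its counts in the Slc6a9-gated cells. The count of precursors thus says nothing of their list either. Secretin (Sct) ran from 0 to 35.8 CPM over libraries (median 6.6) in the members and 52.8 to 92.3 CPM (median 74.4) in the Slc6a9-gated cells (log2 change -2.94 ± 0.35 (SE), edgeR adjusted p = 2.08e-09). Nxph1, a neurexophilin, had 1 UMI against 583 (37.8-fold lower, 6.76 to 1497). Of the list for peptide processing and dense-core vesicles, 2 of 13 tested genes were higher and 7 were lower (median log2 change -0.48, against 0.01 over all genes tested). Of all genes tested, 12.2% were higher and 12.5% lower.

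Pcsk2, a convertase that cuts peptide precursors, and Pam, the enzyme that amidates peptides, were both lower in the members of every library. Pcsk2 ran from 0 to 95.9 CPM over libraries (median 27.3) in the members and 91.4 to 172 CPM (median 118) in the Slc6a9-gated cells, with overlap (log2 change -1.90 ± 0.23 (SE), edgeR adjusted p = 2.06e-09). Pam ran from 15.1 to 95.9 CPM over libraries (median 54.6) in the members and 132 to 272 CPM (median 164), without overlap (log2 change -1.70 ± 0.18 (SE), edgeR adjusted p = 3.95e-11). Tpst1, a tyrosine sulphotransferase, rose by 0.89 ± 0.24 (edgeR adjusted p = 0.00358). In the list for GABA and glycine handling, 2 of 9 tested genes were higher and 2 were lower, beside 12.2% and 12.5% of all genes tested. Abat, which breaks down GABA, ran from 90.5 to 200.1 CPM over libraries (median 132) in the members and 47.9 to 81.5 CPM (median 68.0) in the Slc6a9-gated cells, with no overlap (log2 change 1.01 ± 0.15 (SE), edgeR adjusted p = 6.97e-07). Slc6a12, a betaine and GABA transporter, was lower (-3.11 ± 0.37, on 7 UMIs in the members).

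Transcription factors moved in both directions, beside 12.2% higher and 12.5% lower of all genes tested. In the bHLH and Id list, 5 of 10 tested genes were higher and 3 were lower, and in the list of EBF, NFI, homeobox and other identity factors, 12 of 35 tested genes were higher and 11 were lower. Sox5 ran from 45.2 to 123 CPM over libraries (median 95.4) in the members and 5.17 to 11.1 CPM (median 6.68) in the Slc6a9-gated cells (log2 change 3.72 ± 0.25 (SE), edgeR adjusted p = 3.39e-17). Meis2, a homeobox factor, ran from 107 to 273 CPM over libraries (median 176) in the members and 18.6 to 50.7 CPM (median 26.4) (log2 change 2.69 ± 0.18 (SE), edgeR adjusted p = 9.60e-18). Prdm8, a zinc-finger regulator on chromosome 5 from 98167198 to 98188991 and outside the lists, ran from 176 to 391 CPM over libraries (median 297) in the members and 6.61 to 13.4 CPM (median 9.89) (log2 change 4.67 ± 0.17 (SE), edgeR adjusted p = 2.06e-28). In each of these 3 genes the lowest library of the members lay above the highest of the other gate. Neurod2 and Neurod4, bHLH relatives of Neurod6, rose by 0.71 ± 0.10 and 0.92 ± 0.10, and Tcf4, a partner of bHLH factors, by 0.89 ± 0.06 on the log2 scale. Ebf3, a relative of Ebf1, rose by 1.16 ± 0.20.

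Tfap2b, a factor that marks amacrine cells, was lower in the members. On chromosome 1 from 19208914 to 19238576, it ran from 20.5 to 395 CPM over libraries (median 203) in the members and 779.8 to 1154 CPM (median 944) in the Slc6a9-gated cells, with no overlap (log2 change -2.33 ± 0.13 (SE), edgeR adjusted p = 1.52e-20). Its relatives Tfap2a (-1.69) and Tfap2c (-2.94) also fell (log2 changes in parentheses), on 16 and 15 UMIs in the members. Pax6, another mark of amacrine cells, did not pass the test in either comparison: it ran from 778 to 1069 CPM over libraries (median 949.9) in the members and 926 to 1084 CPM (median 1006) in the Slc6a9-gated cells (log2 change -0.11 ± 0.06 (SE), edgeR adjusted p = 0.244). Id2 (-2.45) and Zeb2 (-1.95) fell, as did Neurod1 (-1.20), another bHLH gene, by the log2 changes in parentheses.

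Adhesion and recognition genes were called in both directions, beside 12.2% higher and 12.5% lower of all genes tested. In the contactin list, 1 of 7 tested genes was higher and 3 were lower, and in the list of other recognition molecules, 17 of 44 tested genes were higher and 10 were lower. Cntnap4, a contactin-associated protein, ran from 27.3 to 71.9 CPM over libraries (median 40.9) in the members and 5.21 to 17.0 CPM (median 7.43) in the Slc6a9-gated cells (log2 change 2.45 ± 0.32 (SE), edgeR adjusted p = 2.14e-08), and its relative Cntnap2 fell by 1.22. Ntng1, the membrane-anchored netrin-G1, ran from 212 to 455 CPM over libraries (median 297) in the members and 34.7 to 99.3 CPM (median 79.2) (log2 change 2.18 ± 0.15 (SE), edgeR adjusted p = 5.23e-17). Cdh18, a cadherin, rose by 2.06 ± 0.27, and the protocadherins Pcdh7 (-3.13) and Pcdh17 (-1.68) fell. With the gates set on cells thinned to 2000 UMIs, Cntnap2 and Pcdh7 did not pass (edgeR adjusted p = 0.656 and 0.165), and Pcdh17 did not pass in batch 2 alone (edgeR adjusted p = 0.233).

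Receptors and channels also divided, beside 12.2% higher and 12.5% lower of all genes tested. For glutamate receptors, 6 of 14 tested genes were higher and 4 were lower, while for GABA and glycine receptors none of 9 was higher and 5 were lower, among them Gabra2, Gabrg3 and Glrb. Grik2, a kainate receptor subunit, ran from 63.7 to 249 CPM over libraries (median 158) in the members and 13.2 to 30.5 CPM (median 24.2) in the Slc6a9-gated cells (log2 change 2.71 ± 0.18 (SE), edgeR adjusted p = 2.03e-17), and Grm8, a metabotropic receptor, rose by 1.38 ± 0.18. Gria3, an AMPA receptor subunit, ran from 6.82 to 72.8 CPM over libraries (median 26.4) in the members and 137 to 216 CPM (median 158) (log2 change -2.47 ± 0.20 (SE), edgeR adjusted p = 2.99e-14). Cnr1, the cannabinoid receptor CB1, ran from 95.9 to 209 CPM over libraries (median 136) in the members and 9.14 to 26.0 CPM (median 11.5) (log2 change 3.37 ± 0.21 (SE), edgeR adjusted p = 2.75e-18). The dopamine receptor gene Drd4 (-2.78) and the adrenergic receptor gene Adrb1 (-2.35) fell. Of the voltage-gated channels, 17 of 36 tested genes were higher and 10 were lower (median log2 change 0.47). Kcnd3, the A-type channel Kv4.3, ran from 90.5 to 252 CPM over libraries (median 191) in the members and 11.9 to 32.6 CPM (median 20.8) (log2 change 3.25 ± 0.18 (SE), edgeR adjusted p = 2.79e-20). Kcnip3 and Kcnip4, which bind Kv4 channels, rose by 1.97 ± 0.11 and 1.54 ± 0.12, and Kcnmb4, a subunit of BK channels, by 3.71 ± 0.21.

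Gjd2, which encodes the neuronal connexin 36, ran from 45.2 to 173 CPM over libraries (median 73.1) in the members and 299 to 442 CPM (median 349) in the Slc6a9-gated cells, with no overlap (log2 change -2.13 ± 0.14 (SE), edgeR adjusted p = 8.11e-18). Hpca, the calcium sensor hippocalcin, ran from 556 to 1327 CPM over libraries (median 1017) in the members and 142 to 404 CPM (median 258) (log2 change 1.84 ± 0.09 (SE), edgeR adjusted p = 4.24e-23), and Ncald (-1.55) and Pcp4 (-1.31), which also act in calcium signalling, fell. Outside the lists, the largest rises were Nxph4 (4.83), Prdm8, Gpr149 (4.61), Hpse (4.61), Fam84a (4.19) and 1810041L15Rik (3.95), and the largest falls were Ptgis, Car3, Slc35f4 and Syndig1, among genes at 20 CPM or more in 1 gate. Gpr149, an orphan receptor on chromosome 3 from 62529077 to 62605140, ran from 109 to 276 CPM over libraries (median 121) in the members and 1.65 to 9.67 CPM (median 6.36). Car3, a carbonic anhydrase, ran from 0 to 58.6 CPM over libraries (median 11.9) in the members and 173 to 583 CPM (median 254) (log2 change -4.32 ± 0.26 (SE), edgeR adjusted p = 2.12e-19). Ptgis and Slc35f4 rested on 1 UMI against 594 and 3 UMIs against 599, ratios of 38.5-fold lower, 6.89 to 1525, and 13.0-fold lower, 4.41 to 63.0 (exact 95% intervals for counting error).

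Against the Cck GABAergic cells, which share Cck, the members differed in 1615 of 4091 genes tested (39.5%), 799 higher (19.5%) and 816 lower (19.9%). At least 2-fold, 188 were higher (4.6%) and 265 lower (6.48%). Levels did not overlap in 436 genes (10.7%). Most lists were again called at a higher share than all genes tested, except GABA and glycine receptors (37.5%) and connexins (0%). Both comparisons use the same members, so they are not independent. Of the Cck GABAergic cells, 325 (32.1%) had a UMI of Chat or Slc18a3, genes of starburst cells. Without those, 635 genes were higher and 643 lower of 3027 tested. Within batches, 506 were higher and 638 lower in batch 2, and 832 and 999 in batch 3, and the change differed between these batches in 123 of 6074 genes tested (2.03%, edgeR interaction test). With gates set on cells thinned to 2000 UMIs, 368 were higher and 417 lower of 2563 tested.

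Several bHLH and EBF transcription factor genes were higher in the members than in the Cck GABAergic cells. Neurod2 ran from 337 to 543 CPM over libraries (median 410.0) in the members and 13.7 to 71.2 CPM (median 30.1) in the Cck GABAergic cells (log2 change 3.65 ± 0.20 (SE), edgeR adjusted p = 2.08e-14). Neurod4 ran from 83.4 to 437 CPM over libraries (median 364) in the members and 10.7 to 66.1 CPM (median 23.0) (log2 change 3.37 ± 0.21 (SE), edgeR adjusted p = 2.88e-13), and Ebf3 from 71.5 to 176 CPM over libraries (median 118) in the members and 3.41 to 23.2 CPM (median 12.1) (log2 change 3.45 ± 0.27 (SE), edgeR adjusted p = 3.10e-11). None of the 3 overlapped. Tcf4 rose by 3.13 ± 0.13, St18 by 3.53 ± 0.31 and Prox1 by 2.54 ± 0.17. Against the Slc6a9-gated cells, Prox1 was lower in the members (-0.45 ± 0.12, edgeR adjusted p = 0.00336). Prox1os, antisense to Prox1, rose by 3.63 ± 0.23, but how strand was counted is not given in the sources used here, so its reads and those of Prox1 may be mixed. Casz1 (-3.84) and Id4 (-3.78) fell, the former on 4 UMIs in the members. Meis2, higher in the members than in the Slc6a9-gated cells, was lower than in the Cck GABAergic cells (-1.84 ± 0.11, edgeR adjusted p = 6.57e-14). In the bHLH and Id list, 4 of 8 tested genes were higher and 3 were lower. In the list of other identity factors, 10 of 35 tested genes were higher and 16 were lower. Of all genes tested, 19.5% were higher and 19.9% lower.

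Of the 30 peptide precursors, 4 were tested against the Cck GABAergic cells (Npy, Tac1, Cartpt and Scg2), and these were lower in the members. A precursor scarce in the members could be tested only through its counts in the Cck GABAergic cells, so this count says nothing of the list. Npy, neuropeptide Y, ran from 0 to 291 CPM over libraries (median 23.8) in the members and 320.2 to 991 CPM (median 789) in the Cck GABAergic cells (log2 change -3.50 ± 0.27 (SE), edgeR adjusted p = 2.32e-11). Tac1, the precursor of substance P, ran from 0 to 45.2 CPM over libraries (median 27.3) in the members and 65.4 to 203 CPM (median 102) (log2 change -2.33 ± 0.28 (SE), edgeR adjusted p = 1.08e-07). Of the list for peptide processing and dense-core vesicles, 2 of 12 tested genes were higher and 8 were lower, beside 19.5% and 19.9% of all genes tested. Syt4, a synaptotagmin of dense-core vesicles, was one of the 2 higher genes and ran from 358 to 769 CPM over libraries (median 482) in the members and 157 to 239 CPM (median 189.5) (log2 change 1.32 ± 0.11 (SE), edgeR adjusted p = 1.61e-10), while Ptprn (-1.21) and Chgb (-1.18) fell. Slc6a11, which encodes the GABA transporter GAT3, fell by 2.88. Slc18a3, the vesicular acetylcholine transporter, fell by 4.88 on 4 UMIs in the members.

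For recognition molecules other than contactins, 10 of 37 tested genes were higher and 16 were lower. Here and for the lists below, 19.5% of all genes tested were higher and 19.9% lower. Ntng1 ran from 212 to 455 CPM over libraries (median 297) in the members and 33.5 to 97.1 CPM (median 56.7) in the Cck GABAergic cells (log2 change 2.52 ± 0.13 (SE), edgeR adjusted p = 7.03e-15). Cbln2, a cerebellin, ran from 0 to 127 CPM over libraries (median 15.1) in the members and 392 to 959.6 CPM (median 567.6) (log2 change -4.45 ± 0.25 (SE), edgeR adjusted p = 2.27e-14), and Pcdh7 fell by 4.61. For glutamate receptors, 4 of 14 tested genes were higher and 7 were lower. Grik2 rose by 3.48 ± 0.27, Grm8 by 1.69 ± 0.17 and Cnr1 by 1.68 ± 0.21, the direction seen against the Slc6a9-gated cells. Gabrd, a GABA receptor subunit found outside synapses, ran from 0 to 27.3 CPM over libraries (median 8.12) in the members and 97.8 to 241 CPM (median 140.0) (log2 change -3.82 ± 0.28 (SE), edgeR adjusted p = 8.36e-12). Of the channels, 10 of 33 tested genes were higher and 16 were lower. Cacna2d3 and Cacna2d2, subunits of calcium channels, went opposite ways, 3.33 ± 0.28 and -4.11 ± 0.28 on the log2 scale. Kcnip4 ran from 203 to 429 CPM over libraries (median 278) in the members and 27.0 to 53.1 CPM (median 37.7) (log2 change 2.99 ± 0.13 (SE), edgeR adjusted p = 2.42e-16).

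Genes of vesicle release were lower in 13 and higher in 7 of 29 tested, beside 19.9% lower and 19.5% higher of all genes tested. Sv2b, a vesicle protein, ran from 71.9 to 164 CPM over libraries (median 114) in the members and 4.55 to 31.1 CPM (median 16.7) in the Cck GABAergic cells (log2 change 2.81 ± 0.24 (SE), edgeR adjusted p = 1.65e-10), and Stx3, a syntaxin, rose by 1.77 ± 0.16. Syt7, a calcium sensor of release, ran from 8.12 to 59.9 CPM over libraries (median 13.6) in the members and 170.4 to 280.2 CPM (median 207) (log2 change -3.23 ± 0.22 (SE), edgeR adjusted p = 2.03e-12). Rims1, an active-zone protein, fell by 3.09 with overlap, and its level in the members ran from 0 to 351 CPM. Of the genes outside the lists, Crabp1, which binds retinoic acid, ran from 959 to 1729.8 CPM over libraries (median 1235) in the members and 59.7 to 194 CPM (median 98.7) (log2 change 3.85 ± 0.15 (SE), edgeR adjusted p = 4.19e-17). Nckap5 ran from 512 to 946 CPM over libraries (median 614) in the members and 16.7 to 71.3 CPM (median 60.6) (log2 change 3.99 ± 0.19 (SE), edgeR adjusted p = 7.66e-16). Crabp1, Nckap5 and the kinesin light chain gene Klc3 were also higher than in the Slc6a9-gated cells, by 2.66 ± 0.08, 3.42 ± 0.10 and 3.42 ± 0.14. Stc1 had 1 UMI against 879 (100.4-fold lower, 18.0 to 3972) and Cpne4 had 3 UMIs against 2015 (76.8-fold lower, 26.2 to 372), both intervals for counting error only.

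**Figure D4:**
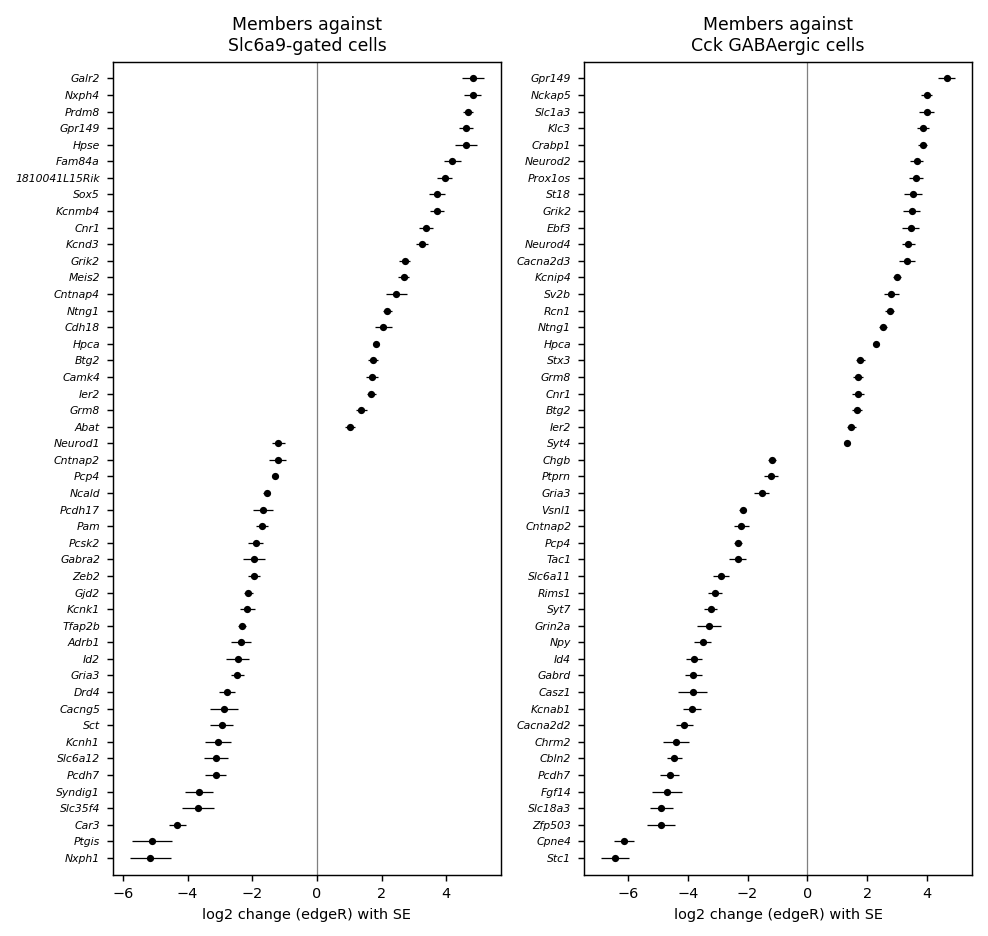
Log2 change with its SE (edgeR) of named genes in members against Slc6a9-gated cells (left) and against Cck GABAergic cells (right), where positive is higher in members. Galr2 and Nxph4 (4.83) lead the left panel and Gpr149 (4.65) the right, and the 6 given marks are not drawn because they carry no test.

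**Figure D5:**
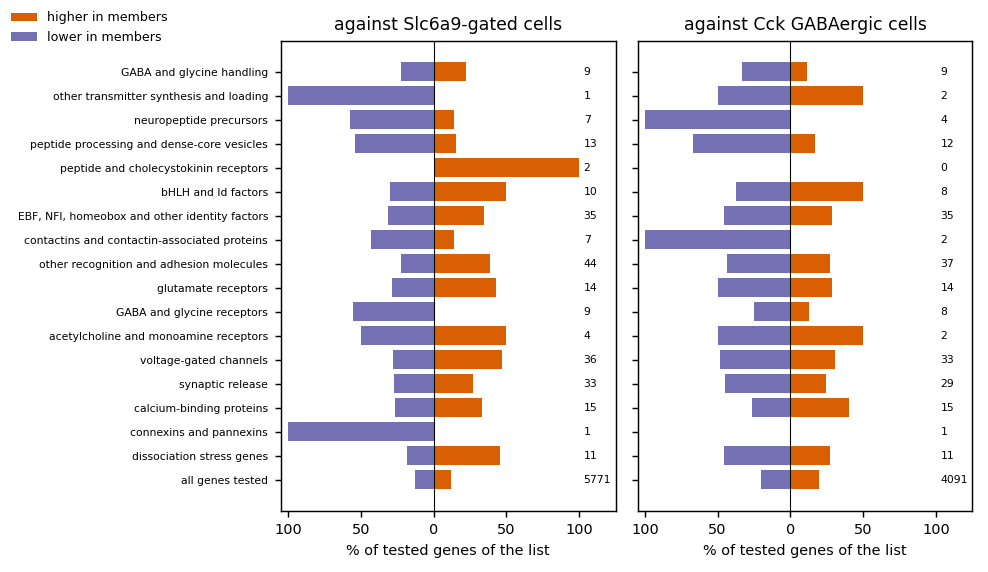
Share of the tested genes of each list that were higher (orange, right of 0) or lower (purple, left of 0) in members, with the number tested at the right edge. All genes tested had 12.2% higher and 12.5% lower on the left and 19.5% and 19.9% on the right, and lists with 1 or 2 tested genes reach 50% or 100% by single genes.

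Of 10 pan-amacrine marks, the members had all but Gad1 and Gad2, which the rule set to 0. Their summed level ran from 2308 to 3212 CPM over libraries in the members, 4476 to 5527 in the Slc6a9-gated and 5419 to 7755 in the Cck GABAergic cells. This sum includes Slc6a9, Gad1 and Gad2, which set the gates, so part of the difference was fixed by the rules. Slc6a9 gave 1602 CPM of it in the pooled Slc6a9-gated cells and 360 in the pooled members. Gad1 and Gad2 gave 1108 and 217 CPM in the pooled Cck GABAergic cells. Other cell classes were checked through their own marks. All 7 microglial marks were at 0 in the members, as were Pou4f2 and Isl2, which mark ganglion cells. Of 8 rod marks the members had 7, all but the rod factor Nr2e3, and the list summed to 43.9 to 187 CPM over libraries in the members, 51.7 to 149 in the Slc6a9-gated and 33.8 to 121 in the Cck GABAergic cells. The 9 ganglion marks together ran from 400.3 to 829.3 CPM over libraries in the members and from 225 to 555 in the Slc6a9-gated cells, with Thy1, a surface protein also found on other neurons, higher in the members (1.41 ± 0.14, edgeR adjusted p = 2.31e-11). The 9 marks of Müller glia ran from 659 to 1215 CPM in the members, 395 to 553 in the Slc6a9-gated and 576 to 1116 in the Cck GABAergic cells. One of them, the glutamate transporter gene Slc1a3, ran from 85.8 to 173 CPM over libraries (median 117) in the members and 3.04 to 15.2 CPM (median 6.77) in the Cck GABAergic cells (log2 change 3.99 ± 0.24 (SE), edgeR adjusted p = 1.13e-13). Another, the glutamine synthetase gene Glul, was lower in the members (-0.61 ± 0.17), so members of the list moved in both directions. The 10 bipolar marks ran from 62.4 to 973 CPM in the members (median 261), 97.4 to 236 (median 169) in the Slc6a9-gated and 134 to 826 (median 596) in the Cck GABAergic cells. Of the members, 55 (15.7%) had 3 or more Müller glia marks, 15 (4.27%) bipolar, 14 (3.99%) ganglion and 9 (2.56%) cone marks. For Slc6a9-gated cells these shares were 11.0%, 1.75%, 3.03% and 1.10%, in that order. They were 47.3%, 10.8%, 8.48% and 4.54% for Cck GABAergic cells, and 36.6%, 4.38%, 5.54% and 1.90% for all cells. In 88 of 351 members, at least 1 other class reached 3 marks. The same held for 944 of 4284 Slc6a9-gated cells, 663 of 1014 Cck GABAergic cells and 14517 of all 32523 cells, not matched for depth. The part of these classes in the gene results was not tested beyond removal: without cells holding 3 markers of another class, 515 genes were higher and 595 lower against the Slc6a9-gated cells (of 4472 tested).

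Genes that respond to dissociation also moved. Against the Slc6a9-gated cells, 5 of 11 tested genes were higher and 2 were lower, beside 12.2% and 12.5% of all genes tested. Against the Cck GABAergic cells, 3 of 11 tested genes were higher and 5 were lower, beside 19.5% and 19.9%. Btg2 and Ier2, immediate early genes, were higher in both (1.73 ± 0.16 and 1.69 ± 0.14 against the first, 1.66 ± 0.17 and 1.47 ± 0.16 against the second). Fos rose by 0.63 ± 0.10 against the first and fell by 0.99 against the second. The part of dissociation in the other differences was not tested.

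Among the members themselves, few of the genes with enough counts to be tested passed in 2 splits. This does not show that the members are alike, since only 903 and 901 genes could be tested. Members with 2 or more Slc6a9 UMIs were set against members with none in libraries 7, 8 and 10, all of batch 3, the only ones with 10 cells of each. No gene of 903 tested passed (0%, edgeR adjusted p), 44 (4.87%) had an unadjusted p under 0.05, and DESeq2 called 0. With libraries of at least 4 cells on each side, 4 genes were higher and 7 lower of 580 tested. Given marks are listed with no test: with and without Slc6a9, Nfix ran from 1063 to 1195 and from 1150.1 to 1267 CPM, and Nhlh2 from 1049.5 to 1405 and from 1406 to 1862 CPM. Over all libraries the 68 Slc6a9-positive members had Tfap2b in 33.8% and Neurod6 in 19.1% of cells, and the 189 members without Slc6a9 had 13.8% and 31.7%, at median depths of 3130.5 and 2351 UMIs.

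Members with a Neurod6 UMI (109) were set against those without (242) in 6 libraries. Of 901 genes tested, 2 passed (0.222%), and both are named here after their values were seen. Crabp1 ran from 1207 to 2181 CPM (median 1608) with Neurod6 and from 751 to 1553 CPM (median 1183) without, which overlapped (log2 change 0.50 ± 0.11, edgeR adjusted p = 0.0202). Snhg11, a long noncoding RNA of neurons, ran from 421 to 1443 CPM (median 459.7) and from 632 to 2693 CPM (median 928), a fall of 0.82 ± 0.14 (edgeR adjusted p = 0.0011). DESeq2 called neither of them, and 57 genes (6.33%) had an unadjusted p under 0.05. Slc6a9 did not pass, with a log2 change of -0.61 ± 0.25 (edgeR adjusted p = 0.667).

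Clustering of the members alone, without the rule's genes, gave 6 sub-groups of 90, 75, 66, 62, 31 and 27 cells, each from 9 or 10 libraries. This is a description, since the cells were clustered on the genes described. In the first 5, in order, Nfix was at 1267, 1304, 1263, 1262 and 1434 CPM. Neurod6 was at 162, 148, 184, 156 and 130.4 CPM. Cntn6 was at 286 CPM in the fourth and at 485 to 614 CPM in the others of these 5. The fourth also had the lowest Nhlh2 (1295 CPM) and Ebf1 (982 CPM) of the 5. The third was led by Egr4, Ier2, Fosb and Fos, which are immediate early genes. The fourth had Tfap2b at 345 CPM, against 37.0 in the first. It was led by Prune2, Slc39a1, Rd3l, Cbln2 and C1ql1, with Cbln2 at 111 CPM against 8.69 in the other members. The last sub-group, 27 cells with a median of 5142 UMIs, stood apart. Its leading genes were Car2, Lamp5, Tfap2b and Zeb2, and it had Cck at 979, Nfix at 614, Cntn6 at 141, Slc6a9 at 844 and Tfap2b at 608 CPM. The bipolar mark Gng13 was also among its leading genes, at 409 CPM against 76.0 in the other members. Grm6, another bipolar mark, was at 96.0 CPM, against 6.51 to 26.1 in the other sub-groups. Gjd2 was at 262 CPM, against 13.0 to 104. Whether this deeper sub-group holds doublets was not tested.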

How the data were processed

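Single-cell RNA was measured in 10 10x Chromium libraries of sorted mouse retinal cells at postnatal day 19. The deposited table holds raw UMI counts per gene and cell (27933 genes, at least 601 genes per cell), made by the authors with Cell Ranger 2.1.0 and mm10, per the submitters' processing notes. Strand use in counting is not given in the sources used here. Total UMI counts were 6302659 to 26028492 per library.

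The members, comparison gates and gene lists were chosen with earlier results of these data known, and the AII and Cartpt gates, the sub-group settings (Leiden resolution 0.8, 15 components, 15 neighbours, 1500 variable genes) and the additional genes described beside the rule below were chosen after values were seen. Counts were summed per library and gate, keeping libraries with at least 10 cells in both, which left library 5, with 8 members, out of the 2 main comparisons. They were tested with edgeR 4.0.16 (TMM, filterByExpr, quasi-likelihood, library as block, R 4.3.3), with Benjamini-Hochberg adjustment over all genes tested. The library is a block because both gates come from the same library's cells. Genes of the rule were not tested, and the 6 given marks carry no test. A list gene was named where it was called, changed at least 2-fold in the fit and went the same way in every library. It also had to reach 20 CPM in the higher gate, and up to 2 were named each way per list. Outside the lists, 6 higher and 4 lower were named. Some genes that meet this rule are not reported here. Batches were compared by exact permutation over libraries. Alternatives included DESeq2 1.42.0, other filters, thinning to 2000 UMIs and leaving out libraries. The code was tested on simulated data. Sub-groups used scanpy 1.11.5 and leidenalg 0.10.2. Binomial intervals are exact (95%) and, like count floors (3 counts), cover counting error only. Gene coordinates come from GENCODE M21.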

Additional observations from a re-analysis of the deposited data

Results flagged for a closer look

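In 16 named genes, 1 of the 9 libraries lay far from the other 8 in the members. For normally spread values, a gap this wide relative to the range arises by chance in about 1 of 20 groups. That rate does not hold for sparse counts. A gene with counts in 1 library only, as Nxph1, Ptgis, Casz1 and Stc1 were, always shows such a gap. Against the Slc6a9-gated cells the genes were Pcsk2 and Zeb2 (95.9 and 179.8 CPM in library 2, next highest 45.5 and 73.2), Cdh18 (131 in library 1, next 61.4), Grm8 (200.1 in library 3, next 136), Gjd2 (173 in library 4, next 90.9), Gpr149 (276 in library 2, next 191) and Car3 (58.6 in library 6, next 20.5). Nxph1 in library 3 (9.09 CPM) and Ptgis in library 4 (9.10 CPM) stood alone above 0, each on 1 UMI. Among genes named against the Cck GABAergic cells, library 4 stood out for Npy (291 CPM, next 81.9), Cbln2 (127, next 36.0) and Kcnab1 (72.8, next 23.8). Library 9 did so for Syt4 (769 CPM, next 527.5) and library 3 for Casz1 (36.4), Stc1 (9.09) and Cpne4 (18.2, next 9.10), the first 2 of which were at 0 in the other libraries.

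For 14 named changes the size differed between batch 3 and batch 2 (edgeR interaction test, adjusted p under the 0.05 threshold), out of 54 of 7347 genes tested against the Slc6a9-gated cells (0.735%) and 123 of 6074 against the Cck GABAergic cells (2.03%). Against the Slc6a9-gated cells the log2 change of Meis2 was larger in batch 3 by 1.07, while batch 3 minus batch 2 was -1.25 for Ntng1 and -0.62 for Hpca. Against the Cck GABAergic cells the rises of Grik2, Neurod2, Neurod4, Klc3, Nckap5, Cnr1, Crabp1 and Syt4 were larger in batch 3, by 1.85, 1.81, 1.71, 1.67, 1.64, 1.16, 1.01 and 0.64. For the lower genes, batch 3 minus batch 2 was -3.07 for Id4, -4.29 for Pcdh7 and 0.61 for Pcp4. Batch 3 libraries were also deeper per cell and richer in Slc6a9-gated cells, and the part of either in these differences was not tested.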

How the results depend on the processing

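No change of a gene named by the rule reversed under any alternative run, but the rule took genes that moved 1 way in every library. Genes described beside the rule, such as Crhr1, Fos and Tfap2c, are not covered by this statement. Over all called genes the sign turned, passing or not, in 240 of 1425 with the members of 2 or more Slc6a9 UMIs. Against the Slc6a9-gated cells it turned in 12 genes in batch 2 alone, 11 with thinned gates, 7 with no filter, and 0 to 4 under each other setting. Against the Cck GABAergic cells it turned in 21 with no filter, 9 in batch 2 alone, 7 with thinned gates, and 0 to 5 under each other setting. Of 951 values of the 51 genes named against the Cck GABAergic cells, all passed as in the reported fit. Of 1098 values of the 49 genes named against the Slc6a9-gated cells, 29 no longer passed, of which 26 came from the 68 members with 2 or more Slc6a9 UMIs alone, where 279 genes in all were called. Batch 2 alone gave 782 calls. Against the Cck GABAergic cells, calls numbered 3001 with no filter on low counts, 797 without cells holding 3 markers of another class and 785 with gates on cells thinned to 2000 UMIs. Without the filter the split of calls moved to 630 higher and 1471 lower against the Slc6a9-gated cells, and 904 and 2097 against the Cck GABAergic cells. Without the replicate block, which pairs gates of the same library, calls were 644 higher and 641 lower, and 725 and 753. Members with and without Slc6a9 gave 4 calls with no filter, 1 without the replicate block, 0 to 5 with 1 library left out and 11 with libraries of at least 4 cells. Members with and without Neurod6 gave 0 calls with the DESeq2 Wald test, without the replicate block, without cells of other classes and with libraries of at least 4 cells, 1 with no filter and in batch 3 alone, 4 in batch 2 alone, 5 with thinned gates and 1 to 4 with 1 library left out. The cause of these shifts was not tested. The difference in share between batches was 0.927 to 1.18 percentage points with 1 library left out (exact permutation p = 0.0159 to 0.0357). Not run for the Slc6a9 split were batch 2 alone, thinned gates and removal of other classes, which left fewer than 2 libraries, and batch 3 alone, which is the same fit. The alternatives with at least 4 cells and without Chat or Slc18a3 cells were chosen after seeing the data. Depth limits what can be said of genes with a few UMIs in 351 shallow cells.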
